A study of Mus musculus with 4 samples.

Results

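*Pml*, *Sp100*, *Smc5*, *Smc6*, *Nsmce2*, *Sumo2*, *Sumo3* and *Pias4* encode components of PML bodies, of the SMC5/6 complex and of the SUMO pathway, and were taken by name. These 8 symbols stand for 9 of the 53379 gene identifiers in the files, because *Sumo3* has 2 identifiers, and all 9 were among the 19148 identifiers that passed the expression filter and were tested. The RNA came from DKO741, a single *Terc*-/- line made from E14 mouse embryonic stem cells (mESCs), so that every library lacks the telomerase RNA gene and none comes from a telomerase-positive control. Both alleles were replaced with the TR-10 construct, whose PGK-neo cassette lay between loxP sites, and after the first targeting Cre from an adenovirus took the cassette out. Cells were collected before the alternative lengthening of telomeres (ALT) at population doubling 100 (PD100, pre-ALT) and long after it at population doubling 800 (PD800, post-ALT), with 2 libraries at each time point and no other treatment. Mouse embryonic fibroblasts served as feeders for maintenance, and the cells used for RNA were grown without them.

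PML bodies are nuclear structures built on the PML protein, which recruits SP100, DAXX, ATRX and many other proteins through SUMO and SUMO-binding motifs. SMC5 and SMC6 form a ring-shaped complex that acts in recombination, and its subunit NSMCE2 is a SUMO ligase. In human cancer cells that maintain telomeres by ALT, some PML bodies hold telomeric DNA, and SUMO modification of telomere proteins by NSMCE2 is known to bring telomeres to them. In the mESC line used here, the study reports no difference in such ALT-associated PML bodies between cells before and after ALT.

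The expected counts, which estimate the read pairs from each gene, summed to 38492149 and 32454121 in PD100 replicates 1 and 2 and to 37460820 and 33362106 in PD800 replicates 1 and 2. At this depth a gene with up to 3 counts was taken as undetected, and this floor ranged from 0.0743 to 0.0934 CPM (counts over the scaled library total) and covers counting error only. Replicate counts differed more in PD100 than in PD800 cells, with a chi-square per degree of freedom of 64.7 against 9.91. The study calls the libraries of a group biological duplicates of this line and says no more of their cultures, so the p-values measure the spread between these libraries. With 2 libraries against 2, an exact two-sided permutation test of 1 gene cannot give a p below 0.333. Tests therefore rest on the quasi-likelihood test of edgeR, adjusted by Benjamini-Hochberg over all 19148 genes, in which the spread is shared between genes, and an adjusted p under 0.01 made a gene a call. Log2 fold changes are PD800 against PD100 from normalised counts, and levels compared between genes are in TPM, which RSEM scales for transcript length.

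Among the 8 genes, *Sumo3* rose and *Sp100* fell from PD100 to PD800, and the other 6 were not called. Of all tested genes, 13.1% were called higher and 15.4% lower in PD800 cells, so 1 higher and 1 lower gene among 8 is near the background. With a fold change over 2 also required, *Sp100* was the member still called, where 6.28% of all tested genes were higher and 8.81% lower. DESeq2 also called *Sumo3* higher and *Sp100* lower at an adjusted p under 0.01, and limma on log2(TPM + 1) called *Sp100* alone. The median log2 fold change of the 8 genes was 0.13, and that of all tested genes was 0.01.

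The order of mean TPM was nearly the same at both time points. *Sumo2* was highest, at 289 ± 86.6 TPM in PD100 and 308 ± 33.5 TPM in PD800 cells (SD, n = 2), followed by *Sumo3*, *Pml* and *Smc5*. *Smc6* and *Nsmce2*, the next genes in the order, changed places, and their libraries overlapped at both time points, so that their levels did not differ beyond the spread. *Pias4* followed, and *Sp100* was lowest. Every other pair of neighbours in the order was separated in both groups, with no overlap between their libraries.

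**Figure D1:**
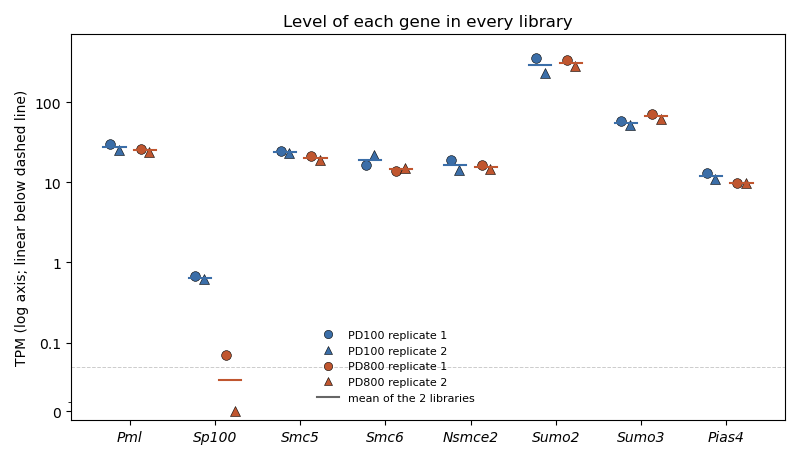
TPM of the 8 genes in each of the 4 libraries (log axis, linear below the dashed line), with PD100 in blue, PD800 in orange, circles for replicate 1, triangles for replicate 2 and lines at the mean of the 2 libraries. *Sp100* was at 0.67 and 0.62 TPM in PD100 and at 0.07 and 0 TPM in PD800 cells, and each of the other 7 genes varied less than 2-fold over the 4 libraries.

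*Pml*, whose protein forms the shell of the body, lies on chromosome 9 of GRCm38 (mm10) from 58218076 to 58249786. Its level was 30.1 and 25.3 TPM in PD100 and 26.2 and 24.0 TPM in PD800 cells. The groups overlapped, and PD100 replicate 1 was the highest library. The log2 fold change was 0.08 ± 0.09 (SE; 95% interval -0.13 to 0.28), and edgeR's quasi-likelihood test gave a Benjamini-Hochberg adjusted p of 0.508. The direction was not stable, since the log2 fold change was -0.02 without PD100 replicate 2 and -0.13 with limma on log2(TPM + 1). In bulk RNA, fewer cells that express a gene and less RNA in each cell cannot be told apart, which applies to every change given here.

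*Sp100*, which encodes an interferon-inducible partner of PML in the body, lies on chromosome 1 from 85649988 to 85709998. Its expected counts were 60.0 and 54.6 in PD100 and 6 and 0 in PD800 cells. Both PD100 libraries were well above the floor, 1 PD800 library was just above it and the other held no read, and the groups did not overlap. Even in PD100 cells the level of the gene was low, at 1.49 and 1.65 CPM. Expression was 17.2-fold lower in PD800 cells, with a 95% interval of 5.58-fold to 53.0-fold (log2 fold change -4.10 ± 0.66, SE), and the adjusted p of edgeR's quasi-likelihood test was 0.00406. Across the alternatives in which it could be tested, the adjusted p lay between 8.73e-20 and 0.00497. The size of the change depended on the few PD800 reads and on the scale, with a log2 fold change of -0.67 by limma on log2(TPM + 1) and of -2.51 on log2(TPM + 0.1). Without PD800 replicate 2 the log2 fold change was -3.20, and without PD800 replicate 1, when only the library at 0 was left, the mean of the PD100 libraries was at least 16.8-fold higher than the floor of that library. *Sp100* was not tested when at least 10 counts were required in every library.

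The *Sp100* gene stands beside *Sp140* and *Sp110*, which encode related nuclear body proteins, and both of these also fell. *Sp140* (chromosome 1, 85600378 to 85645037) was at 1.35 and 1.12 TPM in PD100 and at 0.24 and 0.66 TPM in PD800 cells, without overlap. Its log2 fold change was -1.73 ± 0.26 (SE), with an edgeR adjusted p of 0.00299, which was 0.014 without PD800 replicate 1 and lay between 9.19e-10 and 0.0565 over all alternatives. *Sp110* (chromosome 1, 85576899 to 85598817) was at 0.51 and 0.30 TPM in PD100 and at 0.06 and 0.05 TPM in PD800 cells. Its log2 fold change was -2.34 ± 0.35 (SE), with an edgeR adjusted p of 0.00307, which was 0.0147 without PD800 replicate 1, 0.0182 without PD800 replicate 2 and between 5.54e-07 and 0.0187 over the alternatives in which it was tested. Like *Sp100*, it was left out when at least 10 counts were required in every library. With limma on log2(TPM + 1) neither gene was called, at -0.64 for *Sp140* (adjusted p 0.0356) and -0.41 for *Sp110* (adjusted p 0.0187). *Sp140* was also not called with limma on log2(TPM + 0.1), at -1.39 (adjusted p 0.0565). On the same chromosome, 3 pseudogenes match a stretch of the *Sp100* transcript closely, so that reads could be divided among them. *Gm7582* (99.1% identity) held 0 and 0 expected counts in PD100 and 3 and 3 in PD800 cells, while *Gm2619* (98.7%) and *Gm7592* (98.3%) held 0 in both PD800 libraries and at most 2.02 in a PD100 library. With the reads of all 3 added to those of *Sp100*, an alternative chosen after seeing the data, its log2 fold change was smaller, at -3.18, with an edgeR adjusted p of 0.00156.

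Of the 27 other tested genes within 1 Mb of *Sp100*, 4 were called higher and 1 lower, and their median log2 fold change was 0.13. Of all tested genes, 13.1% were called higher and 15.4% lower. The gene called lower, named after its values were seen, was *2810459M11Rik*, with a log2 fold change of -2.11 ± 0.43 (SE) and an edgeR adjusted p of 0.0098. *C130026I21Rik*, also named after its values were seen, was at -2.40 ± 0.54 (SE) and was not called (edgeR adjusted p 0.0141). The 4 with the highest mean TPM, named after their values were seen, were *Ptma*, *Trip12*, *Ncl* and *Psmd1*, with log2 fold changes of -0.32, 0.64, -0.41 and -0.04, of which *Trip12* was called higher.

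**Figure D2:**
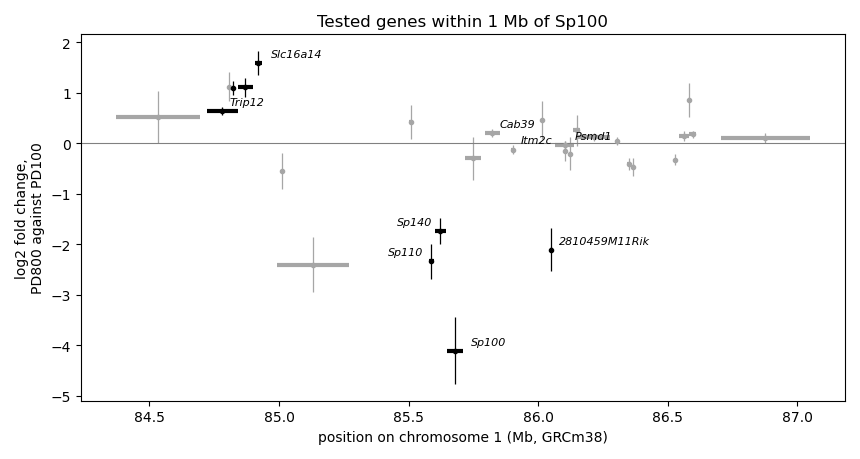
Log2 fold change of PD800 against PD100 for every tested gene within 1 Mb of *Sp100* on chromosome 1 (GRCm38), with horizontal bars for the extent of each gene, vertical bars for 1 SE, black for an adjusted p under 0.01 and grey for genes not called. *Sp110*, *Sp140* and *Sp100* lie side by side at -2.34, -1.73 and -4.10, and the next tested genes beyond *Sp100*, *A630001G21Rik*, *Cab39* and *Itm2c*, lie at -0.30, 0.21 and -0.12.

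Of the 10 other PML body genes, 1 was called higher and 2 lower, and the median log2 fold change of the list was -0.18. Of all tested genes, 13.1% were called higher and 15.4% lower, so these counts are near the background. The 2 lower genes were *Sp140* and *Sp110*, and both were over 2-fold lower. *Atrx*, which encodes a chromatin remodeller that deposits histone H3.3 together with DAXX and is often lost in human ALT cancers, was at 72.3 and 73.7 TPM in PD100 and at 106 and 106 TPM in PD800 cells. Both PD800 libraries were above both PD100 libraries. The log2 fold change of *Atrx* was 0.70 ± 0.08 (SE), with an edgeR adjusted p of 0.00113, which was 0.0169 without PD800 replicate 1, 0.0229 without PD800 replicate 2 and between 5.03e-12 and 0.0229 over all alternatives. The other 7 genes were not called.

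The genes most like *Sp100* over the 4 libraries, by Euclidean distance between centred log2 CPM values, were *H2-T10*, *Gm16136* and *Il17re*, at distances of 0.31, 0.53 and 0.56. *H2-T10*, a non-classical class I histocompatibility gene on chromosome 17, had expected counts of 49.5 and 43.2 in PD100 and of 3.92 and 0 in PD800 cells. *Gm16136* had 51 and 37 in PD100 and 3 and 0 in PD800 cells, and *Il17re*, which encodes a receptor of the interleukin-17 family, had 34 and 39 in PD100 and 4 and 0 in PD800 cells. All 3 had few or no reads in PD800 cells, like *Sp100*, which follows from how they were chosen.

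*Sp100* and *Pml* are inducible by interferon, and a list of 23 interferon-stimulated genes was set beside them. The list was chosen with earlier results of these data known, so its counts are a description. Of these genes, 20 were called lower in PD800 cells, 15 of them over 2-fold, and 0 were called higher by edgeR's quasi-likelihood test. Of all tested genes, 15.4% were called lower, 8.81% lower beyond 2-fold and 13.1% higher. At an unadjusted p under 0.05, 22 were lower and 0 higher, while DESeq2 called 20 lower and 0 higher and limma on log2(TPM + 1) called 17 lower and 0 higher. The median log2 fold change of the list was -1.34, against 0.01 over all tested genes. The summed level of the list was 409 and 384 TPM in PD100 and 116 and 113 TPM in PD800 cells, and *Bst2* was its most abundant gene in PD100 but not in PD800 cells.

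*Isg15*, which encodes a ubiquitin-like modifier, was at 30.4 and 35.5 TPM in PD100 and at 1.63 and 1.75 TPM in PD800 cells. *Bst2*, which encodes the antiviral membrane protein tetherin, was at 110 and 118 TPM in PD100 and at 12.3 and 13.3 TPM in PD800 cells. *Gbp2*, which encodes a guanylate-binding protein, was at 14.8 and 11.9 TPM in PD100 and at 0.58 and 0.51 TPM in PD800 cells. In all 3 genes the replicates lay close together and the groups were far apart, but they were picked from the called genes. Their log2 fold changes were -4.06 ± 0.19, -2.93 ± 0.14 and -4.38 ± 0.12 (SE). Among the other called genes of the list, the log2 fold change was -4.36 for *Psmb8*, -3.28 for *Ifih1*, -2.64 for *Ifit3*, -2.41 for *Oasl2*, -2.15 for *Ifit1* and -2.05 for *Ifi35*. Those of *Parp14*, *Usp18*, *Parp9*, *Irf1*, *Rtp4*, *Ifit2*, *Dtx3l*, *Trim25*, *Ddx58*, *Irf7* and *Stat2* lay between -1.82 and -0.47.

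For 5 of these genes the call was lost without a PD800 library. Without PD800 replicate 1 the edgeR adjusted p was 0.0683 for *Irf7*, 0.0649 for *Stat2*, 0.0187 for *Ddx58*, 0.0167 for *Trim25* and 0.0159 for *Ifit2*. Without PD800 replicate 2 it was 0.0342 for *Irf7*, 0.0704 for *Stat2*, 0.0235 for *Ddx58* and 0.0115 for *Trim25*. *Irf7*, at 0.00986 just under the threshold in edgeR, was also not called with DESeq2's size factors (0.0105), with upper-quartile factors (0.0107) or without mitochondrial genes (0.0112). With limma on log2(TPM + 1) the adjusted p was 0.013 for *Irf7*, 0.0142 for *Stat2* and 0.0161 for *Ifit2*. Over all alternatives the adjusted p of these 5 genes lay between 1.13e-11 and 0.0704. The 3 genes not called were *Irf9*, *Zbp1* and *Xaf1*, and they were named after their values were seen.

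The bases before the RefSeq starts of *Sp100* and *Pml* are shown beside those of *Isg15* and *Gbp2*. *Isg15* and *Gbp2* were picked from the interferon-stimulated genes with their large changes known, and both hold the second motif described below. Other genes of the list with large changes, such as *Psmb8* at a log2 fold change of -4.36, are not shown. The RefSeq promoter table (GRCm38.p6) matched 6 of the 8 symbols, all but *Nsmce2* and *Pias4*, and 250 bases before each RefSeq start were searched on both strands. The first motif was AANNGAAA, the core bound by interferon regulatory factors, and the second was GAAANNGAAA, the core of the interferon-stimulated response element, every match of which also holds a match of the first. The first was found for *Sp100*, with 2 overlapping matches, and for *Pml*, with 1, and in 8 of the 18 interferon-stimulated genes in the table, against 23.9% of all 27025 gene symbols. The second was found in 0 of the 6 genes and in 6 of the 18 interferon-stimulated genes (*Bst2*, *Gbp2*, *Ifit1*, *Ifit3*, *Isg15* and *Stat2*), against 3.46% of all symbols. Among the 10 other PML body genes, *Sp140* and *Sp110* included, 0 held either motif, and of the 5 other SMC5/6 genes with an entry, 2 (*Nsmce1* and *Nsmce3*) held the first and 0 the second. A match describes the letters of the window and is not a site shown to be bound. The part of these motifs in the changes of any gene was not tested. The 250 bases lie at chr1:85649738-85649987 (plus strand) for *Sp100*, chr9:58249787-58250036 (minus strand) for *Pml*, chr4:156200819-156201068 (minus strand) for *Isg15* and chr3:142620413-142620662 (plus strand) for *Gbp2*, each written 5′ to 3′ along the gene with matches of either motif in capitals. For *Gbp2* the GENCODE gene starts earlier, at 142620602, so the last 61 bases of its window, the capitals among them, lie inside that gene.
Sp100: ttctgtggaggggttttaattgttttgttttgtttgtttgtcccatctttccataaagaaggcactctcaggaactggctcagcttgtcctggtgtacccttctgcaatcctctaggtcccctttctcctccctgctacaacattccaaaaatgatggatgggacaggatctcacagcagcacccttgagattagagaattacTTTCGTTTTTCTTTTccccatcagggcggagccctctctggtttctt
Pml: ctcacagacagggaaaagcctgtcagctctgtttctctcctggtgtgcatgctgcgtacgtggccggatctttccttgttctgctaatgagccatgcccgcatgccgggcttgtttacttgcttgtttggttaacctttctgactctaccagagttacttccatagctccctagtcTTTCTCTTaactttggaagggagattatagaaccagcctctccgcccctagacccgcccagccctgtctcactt
Isg15: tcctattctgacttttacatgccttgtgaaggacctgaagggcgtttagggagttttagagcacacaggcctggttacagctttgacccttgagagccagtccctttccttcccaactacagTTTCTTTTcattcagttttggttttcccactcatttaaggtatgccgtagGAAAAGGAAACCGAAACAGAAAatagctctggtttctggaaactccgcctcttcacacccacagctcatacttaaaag
Gbp2: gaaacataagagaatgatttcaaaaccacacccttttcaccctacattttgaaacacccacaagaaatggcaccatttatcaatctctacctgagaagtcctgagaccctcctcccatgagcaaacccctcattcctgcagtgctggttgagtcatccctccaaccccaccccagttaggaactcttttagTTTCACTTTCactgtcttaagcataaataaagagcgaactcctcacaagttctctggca

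Markers of other cell types also changed. For comparison with the marker lists, 13.1% of all tested genes were called higher and 15.4% lower. The study's single-cell RNA sequencing, not analysed here, placed PD100 and PD800 cells in distinct populations and describes each as highly homogeneous. Of 8 primitive endoderm markers, 7 were called lower in PD800 cells, with a summed level of 40.6 and 32.2 TPM in PD100 and of 2.97 and 2.77 TPM in PD800 cells. *Sox17*, *Gata4* and *Dab2* were the 3 most abundant of them in both PD100 libraries, and *Foxa2* had no more than 3 counts in either PD800 library. Of 4 trophoblast markers 3 were tested and all 3 were lower, with sums of 189 and 193 TPM in PD100 and 5.34 and 5.32 TPM in PD800 cells, nearly all of it from the keratin gene *Krt18*. Of 8 fibroblast markers, which could come from feeders, 7 were tested and 4 were lower, with sums of 12.5 and 12.6 TPM in PD100 and 3.12 and 3.26 TPM in PD800 cells. The 3 most abundant in both PD100 libraries were *Thy1*, *Col1a2* and *Col1a1*, and *Lum* was at or under the floor in all 4 libraries. Of 6 two-cell state markers, 2 were higher (*Tcstv1* and *Tcstv3*) and 3 lower (*Zscan4c*, *Zscan4d* and *Zscan4f*), with sums of 5.96 and 4.39 TPM in PD100 and 28.1 and 17.6 TPM in PD800 cells, mostly from the *Zscan4* genes in PD100 and from *Tcstv3* in PD800 cells. *Tcstv3* (chromosome 13, 120316878 to 120318178) lies within mTALT, the segment that the study describes as amplified in post-ALT cells, and *Tcstv1* (chromosome 13, 119893388 to 119894785) lies in a nearby stretch that shares sequence with it, so their rise cannot be told apart from that amplification. *Zscan4f* and *Zfp352* had no more than 3 counts in either PD800 library. DESeq2 called 4 fibroblast, 2 trophoblast and 2 two-cell state markers lower, while limma on log2(TPM + 1) called 2, 2 and 3, in the same order. Both methods called 7 primitive endoderm markers lower and 2 two-cell state markers higher.

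The embryonic stem cell markers were present at both time points. Of 8, 4 were called higher in PD800 cells (*Nanog*, *Esrrb*, *Tdgf1* and *Utf1*) and 0 lower by edgeR's quasi-likelihood test. At an unadjusted p under 0.05, 7 were higher and 0 lower, and DESeq2 called 7 higher and limma on log2(TPM + 1) 2 higher, both with 0 lower. The summed level was 1497 and 1800 TPM in PD100 and 2134 and 2182 TPM in PD800 cells, *Dppa5a* was the most abundant gene, and no marker was at the floor. The part of these marker genes in the fall of *Sp100*, *Sp140*, *Sp110* and the interferon-stimulated genes, and in the rise of *Sumo3*, was not tested.

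The 3 members of the SMC5/6 complex were not called. *Smc5*, which encodes 1 of the paired ATPase arms of the ring, lies on chromosome 19 from 23206451 to 23273897 and was at 96.8 and 106 CPM in PD100 and at 113 and 112 CPM in PD800 cells. The groups did not overlap, with PD800 higher. Its log2 fold change was 0.15 ± 0.08 (SE; 95% interval -0.04 to 0.34), with an edgeR adjusted p of 0.168. On the TPM scale the order was the opposite, at 24.3 and 23.1 TPM in PD100 and at 21.0 and 19.2 TPM in PD800 cells. The mean transcript length that RSEM assigned to *Smc5*, by which TPM is divided, was 3263 and 3378 bases in PD100 and 3636 and 3706 bases in PD800 cells.

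*Smc6*, which encodes the other arm, lies on chromosome 12 from 11265886 to 11319785 and was at 77.5 and 78.7 CPM in PD100 and at 78.9 and 79.4 CPM in PD800 cells. These 4 values lay within a narrow range. Between the groups, the log2 fold change was 0.02 ± 0.07 (SE; 95% interval -0.15 to 0.19), with an edgeR adjusted p of 0.843. Its TPM was 16.3 and 22.0 in PD100 and 13.9 and 15.0 in PD800 cells, and the library with the highest TPM, PD100 replicate 2, was also the one with the shortest assigned length, at 2664 bases against 3854, 3806 and 3391 bases in PD100 replicate 1 and PD800 replicates 1 and 2.

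*Nsmce2*, whose protein is the SUMO ligase of the complex, lies on chromosome 15 from 59374247 to 59601684. Its level was 19.0 and 14.1 TPM in PD100 and 16.7 and 14.7 TPM in PD800 cells. PD100 replicates 1 and 2 were the highest and the lowest of the 4 libraries, so the groups overlapped. The log2 fold change was 0.15 ± 0.11 (SE; 95% interval -0.12 to 0.41), with an edgeR adjusted p of 0.314. Its assigned length stayed between 1151 and 1174 bases in the 4 libraries.

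The scale matters for such small differences. With limma on log2(TPM + 1) the median difference over the tested genes was -0.12 (log2), and on log2(TPM + 0.1) it was -0.21, against 0.01 for edgeR on counts. On log2(TPM + 1) the differences were -0.13 for *Pml*, -0.23 for *Smc5*, -0.37 for *Smc6*, -0.06 for *Nsmce2* and -0.26 for *Pias4*, so these 5 genes were on the other side of 0 from their count-based values and none was called on either scale.

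Among the 7 other SMC5/6 subunits and loading factors, 3 were called higher and 1 lower, and the median log2 fold change was 0.46. The shares over all tested genes were 13.1% higher and 15.4% lower. The 3 that rose encode subunits that form a module at the heads of the SMC arms. *Nsmce4a* was at 37.8 and 39.7 TPM in PD100 and at 59.5 and 62.5 TPM in PD800 cells, *Nsmce1*, which encodes a RING-type ubiquitin ligase subunit, was at 12.8 and 12.9 TPM in PD100 and at 18.7 and 19.1 TPM in PD800 cells, and *Nsmce3* was at 2.22 and 2.16 TPM in PD100 and at 2.59 and 2.51 TPM in PD800 cells. All 3 were higher in both PD800 libraries than in either PD100 library, which is no separate support, since they were named because they were called. Their log2 fold changes were 0.88 ± 0.11, 0.79 ± 0.10 and 0.46 ± 0.09 (SE), with edgeR adjusted p of 0.00144, 0.00156 and 0.00691. The call of *Nsmce3* was lost without PD800 replicate 1 (adjusted p 0.0507 in edgeR) and without PD800 replicate 2 (0.0643), within a range of 0.000309 to 0.308 over all alternatives. *Nsmce1* was not called with limma on log2(TPM + 1), at a log2 fold change of 0.52 and an adjusted p of 0.0102, or on log2(TPM + 0.1), at 0.55 and 0.01. In the same 2 limma fits *Nsmce3* was not called either, at 0.15 (adjusted p 0.308) and 0.21 (adjusted p 0.296).

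*Simc1*, which encodes a SUMO-interacting loader of the complex, was at 5.11 and 3.84 TPM in PD100 and at 1.52 and 1.54 TPM in PD800 cells. The groups did not overlap, and both PD800 libraries were lower. On counts, its log2 fold change was -1.20 ± 0.12 (SE), with an edgeR adjusted p of 0.000662, and it was called under each alternative. *Slf1* and *Slf2*, which encode the loading factors that bring the complex to DNA damage, had log2 fold changes of -0.25 ± 0.09 and -0.29 ± 0.10 (SE) and were not called. *Eid3*, which encodes a relative of NSMCE4A, had a log2 fold change of 0.82 ± 0.20 (SE) with an edgeR adjusted p of 0.0185. These 3 genes fall outside the naming rule and were picked after their values were seen.

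Of the 5 genes of other SMC complexes, 1 was higher and 1 lower, with a median log2 fold change of 0.16. With 13.1% of all tested genes called higher and 15.4% lower, these counts are near the background. *Smc2*, which encodes a condensin arm, had a log2 fold change of 0.38 ± 0.07 (SE, edgeR adjusted p 0.00725), which was -0.03 with limma on log2(TPM + 1). *Smc3*, which encodes a cohesin arm, fell from 39.6 and 39.2 TPM in PD100 to 23.3 and 24.3 TPM in PD800 cells, with a log2 fold change of -0.47 ± 0.09 (SE, edgeR adjusted p 0.00702). Without PD800 replicate 1 the edgeR adjusted p was 0.102 for *Smc2* and 0.124 for *Smc3*, and without PD800 replicate 2 it was 0.114 and 0.0529, within ranges of 0.000473 to 0.827 and 8.77e-06 to 0.124 over all alternatives. *Smc1b*, which encodes a meiotic cohesin arm, was at 0.62 and 0.62 TPM in PD100 and at 0.74 and 0.77 TPM in PD800 cells, with an edgeR adjusted p of 0.0341.

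*Sumo3* was the member called higher. It encodes 1 of the nearly identical modifiers SUMO2 and SUMO3, and its main identifier (ENSMUSG00000020265.16) lies on chromosome 10 from 77606097 to 77618331. The level was 99.0 and 92.2 CPM in PD100 and 140 and 144 CPM in PD800 cells. Both PD800 libraries were above both PD100 libraries, and the gap between the groups was larger than the spread in either. Expression was 1.49-fold higher in PD800 cells (log2 fold change 0.57 ± 0.08, SE; 95% interval 0.38 to 0.76), and edgeR's quasi-likelihood test gave an adjusted p of 0.002. In TPM the libraries were at 57.4 and 51.1 in PD100 and at 70.4 and 62.0 in PD800 cells, again without overlap, but limma on log2(TPM + 1) gave a log2 fold change of 0.28 with an adjusted p of 0.108. The edgeR adjusted p was 0.0236 without PD800 replicate 1 and 0.0286 without PD800 replicate 2, and it lay between 5.43e-08 and 0.109 over all alternatives.

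The second *Sumo3* identifier (ENSMUSG00000112241.1) is named *Gm49325*, a separate protein-coding gene, in GENCODE M21. It runs over the same place, from 77606197 to 77641543 on chromosome 10, and shares 346 bases of its transcript with the main one at 100% identity. Its expected counts were 11.1 and 24.1 in PD100 and 5.81 and 0 in PD800 cells, all far below those of the main identifier, and how many of these reads fit both was not tested. It was lower in both PD800 libraries than in either PD100 library. PD800 cells differed from PD100 cells by a log2 fold change of -2.42 ± 0.96 (SE), with an edgeR adjusted p of 0.0864, which was 0.00728 without PD100 replicate 1 and between 0.000357 and 0.21 over the 14 alternatives in which it was tested. With the reads of *Sumo3* and *Gm49325* summed, an alternative chosen after seeing the data, the log2 fold change of *Sumo3* was 0.56 with an edgeR adjusted p of 0.00201.

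*Sumo2*, the most abundant of the 8 genes, lies on chromosome 11 from 115523102 to 115536276. Its level was 378 and 282 CPM in PD100 and 436 and 393 CPM in PD800 cells. The PD800 libraries were the 2 highest in CPM, but the PD100 libraries stood far apart, and in TPM (350 and 228 in PD100, 331 and 284 in PD800) the groups overlapped. The log2 fold change was 0.33 ± 0.15 (SE; 95% interval -0.04 to 0.70), with an edgeR adjusted p of 0.124. Without PD100 replicate 1 it was 0.56, with an edgeR adjusted p of 5.49e-05, and without PD100 replicate 2 it was 0.11, so that the result depended on which PD100 library was kept. The largest adjusted p over all alternatives was 0.724. In edgeR it was 0.00336 with no expression filter and 0.00833 with the replicate block, so *Sumo2* was called in both of these fits.

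Several processed pseudogenes copy the *Sumo2* transcript, and reads could be divided among them. The one with the most reads, *Gm10241*, held 61.7 and 46.3 expected counts in PD100 and 65.0 and 60.4 in PD800 cells, against 15265 and 9415 in PD100 and 15681 and 12642 in PD800 cells for *Sumo2* itself. With 7 such pseudogenes added to *Sumo2*, also chosen after seeing the data, the log2 fold change was 0.33. *Samd8*, a gene on chromosome 14 with 532 bases at 92.7% identity to *Sumo2*, was not added.

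*Pias4*, which encodes a SUMO ligase that acts in the DNA damage response, lies on chromosome 10 from 81153266 to 81167923. It was at 28.5 and 32.1 CPM in PD100 and at 30.7 and 34.5 CPM in PD800 cells. The groups overlapped in CPM, while in TPM, at 13.1 and 11.1 in PD100 and 9.89 and 9.84 in PD800 cells, both PD800 libraries were lower. Between the groups, the log2 fold change was 0.11 ± 0.10 (SE; 95% interval -0.14 to 0.35), with an edgeR adjusted p of 0.432. Its assigned length was 1862 and 2189 bases in PD100 and 2159 and 2295 bases in PD800 cells.

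Of the 7 other SUMO ligases, 2 were called higher and 1 lower, with a median log2 fold change of -0.07. The shares over all tested genes were 13.1% higher and 15.4% lower, and in so short a list these counts are near them. The relatives *Pias2* and *Pias3* rose, from 21.3 and 17.3 TPM to 27.9 and 25.7 TPM and from 4.26 and 3.88 TPM to 6.93 and 6.42 TPM in the PD100 and PD800 libraries. *Ranbp2*, which encodes a ligase of the nuclear pore, fell from 35.4 and 31.4 TPM to 17.2 and 16.3 TPM. In none of these 3 genes did the groups overlap. They were named because they were called, so the lack of overlap is no separate support. The log2 fold changes were 0.86 ± 0.12 for *Pias2*, 0.91 ± 0.14 for *Pias3* and -0.76 ± 0.07 for *Ranbp2* (SE), with edgeR adjusted p of 0.00225, 0.00302 and 0.000646. Without PD800 replicate 1 these adjusted p were 0.0103, 0.012 and 0.0169 in edgeR, and without PD800 replicate 2 that of *Ranbp2* was 0.0142. The largest adjusted p over all alternatives was 0.046 for *Pias2*, 0.0154 for *Pias3* and 0.0169 for *Ranbp2*.

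*Sae1* and *Uba2* encode the subunits of the SUMO-activating enzyme, which acts ahead of the ligases. Of these 2 genes, 0 were called by edgeR's quasi-likelihood test, 1 was higher and 0 lower at an unadjusted p under 0.05, and DESeq2 and limma on log2(TPM + 1) called 0. *Uba2* was at 110 and 110 TPM in PD100 and at 112 and 109 TPM in PD800 cells, and *Sae1* was at 90.02 and 112 TPM in PD100 and at 79.1 and 81.8 TPM in PD800 cells. The groups overlapped for *Uba2*, and for *Sae1* both PD800 libraries were lower in TPM. The log2 fold changes on counts were 0.24 ± 0.08 for *Uba2* and -0.03 ± 0.13 for *Sae1* (SE), with a median of 0.10. Without PD100 replicate 2 the edgeR adjusted p of *Uba2* was 0.00738, the smallest over all alternatives, of which the largest was 0.942, and the log2 fold change of *Sae1* was 0.12, on the other side of 0, as was the 0.04 without PD800 replicate 1.

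Of the 9 SUMO proteases, 1 was called lower and 0 higher by edgeR's quasi-likelihood test, and the median log2 fold change was -0.11. With 13.1% of all tested genes called higher and 15.4% lower, these counts are near the background. At an unadjusted p under 0.05, 1 was higher and 2 lower, while DESeq2 called 0 higher and 1 lower and limma on log2(TPM + 1) called 0 in either direction. *Desi1*, which encodes a desumoylating isopeptidase, was at 5.88 and 5.16 TPM in PD100 and at 3.24 and 3.04 TPM in PD800 cells. Both PD800 libraries were lower. Its log2 fold change was -0.58 ± 0.08 (SE), with an edgeR adjusted p of 0.00248, which was 0.0294 without PD800 replicate 1 and 0.0287 without PD800 replicate 2, within a range of 4.36e-06 to 0.0294 over all alternatives. *Senp2* had a log2 fold change of -0.30 ± 0.08 (SE), with an edgeR adjusted p of 0.0221 that became 0.00251 without PD100 replicate 1 and 0.00353 without PD100 replicate 2 and was at most 0.325 over all alternatives. *Senp6* had a log2 fold change of 0.19 ± 0.08 (SE) that was -0.17 with limma on log2(TPM + 1).

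The genes of the 2 SUMO-targeted ubiquitin ligases, which mark SUMO-modified proteins such as PML for degradation, were not called. By edgeR's quasi-likelihood test 0 were called, 1 was higher and 0 lower at an unadjusted p under 0.05, DESeq2 called 1 higher and limma on log2(TPM + 1) called 0. *Rnf111* was at 11.6 and 8.01 TPM in PD100 and at 12.6 and 10.8 TPM in PD800 cells, with overlap. Its log2 fold change was 0.49 ± 0.15 (SE), with an edgeR adjusted p of 0.0351 that became 4.12e-06 without PD100 replicate 1 and 0.00976 without PD100 replicate 2 and was at most 0.365 over all alternatives. *Rnf4* was at 71.0 and 83.3 TPM in PD100 and at 66.6 and 63.9 TPM in PD800 cells, and its log2 fold change was 0.15 ± 0.07 (SE) on counts and -0.23 with limma on log2(TPM + 1).

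**Figure D3:**
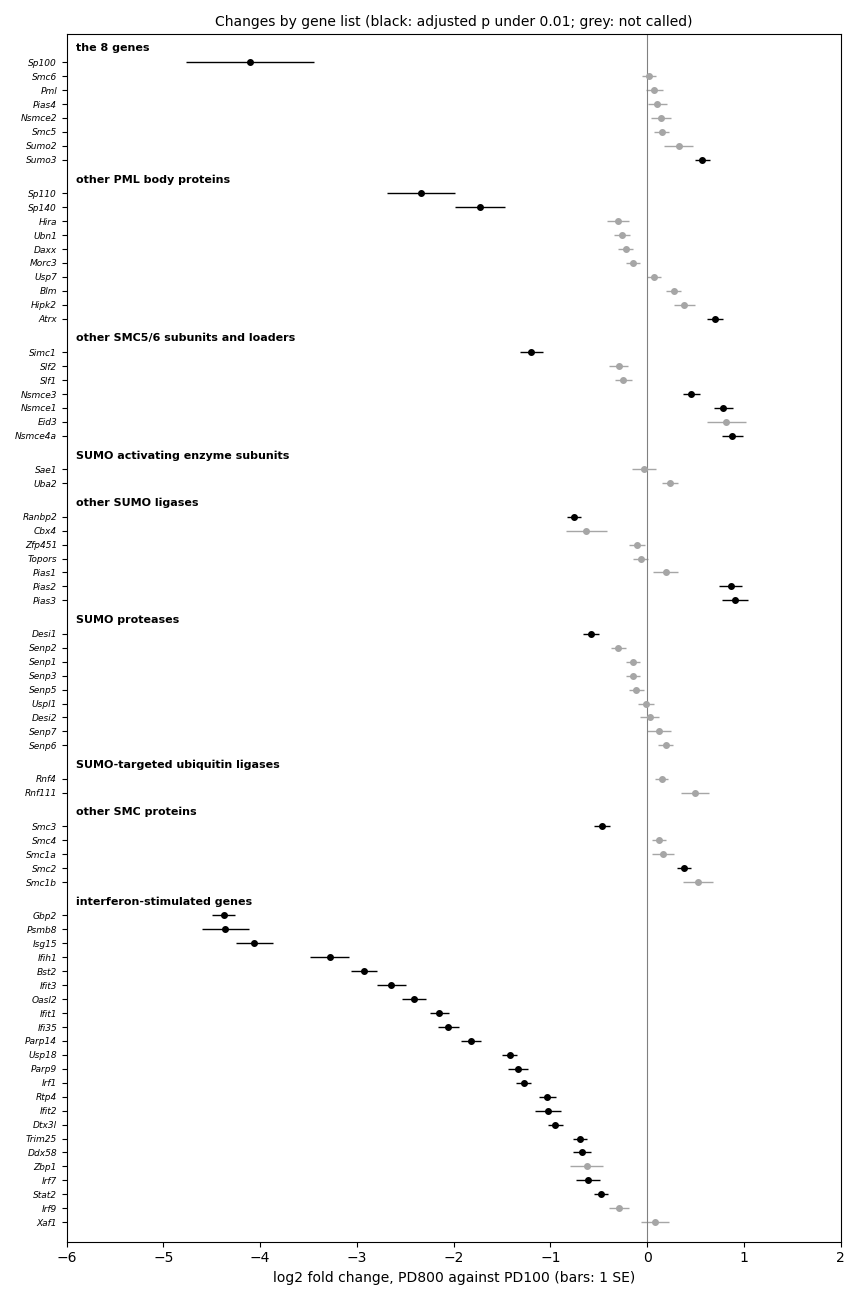
Log2 fold change of PD800 against PD100 (horizontal axis, bars 1 SE) for the 8 genes and the tested genes of each list, with black for an adjusted p under 0.01 and grey for genes not called. The interferon-stimulated genes lie almost entirely to the left of 0, *Sp100* lies at -4.10, and the genes of the SUMO-activating enzyme lie close to 0.

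The study describes copy-number changes near chromosome ends, so the neighbourhood of each member was also described. The 40 nearest tested genes of *Sumo2* had a median log2 fold change of 0.33, close to the 0.33 of *Sumo2* itself, with 10 of the 40 called higher, and *Sumo2* lies 6.43 Mb from the last annotated base of chromosome 11. Those of *Sumo3* had a median of -0.18, with 1 called higher and 7 lower, on the other side of 0 from *Sumo3*. Those of *Sp100*, *Sp110* and *Sp140* among them, had a median of 0.04, with 6 higher and 3 lower, and a median of -0.14 among the 20 nearest. For the other 5 genes the medians were 0.18 around *Pml*, 0.01 around *Pias4*, -0.10 around *Smc6*, -0.23 around *Nsmce2* and -0.26 around *Smc5*, and among the 20 nearest genes they were 0.21, -0.03, 0.0004, -0.09 and 0.16, in the same order. DNA copy number was not analysed here, and its part in these values was not tested.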

How the data were processed

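Per the labels and methods, the authors aligned reads to mm10 with STAR 2.5.3a and deposited, from RSEM 1.3.0, an expected count, a TPM value and a mean transcript length per gene and library. The strand setting is not given in the sources used here. The number in the label set the group of a library. The labels give this number as PDL or as passages, and the study gives population doublings, which are used here. After rounding to whole numbers, expected counts were tested with edgeR 4.0.16 in R 4.3.3, using TMM, filterByExpr (minimum count 10) and the quasi-likelihood test, adjusted by Benjamini-Hochberg. CPM values use totals scaled by the TMM factors (1.05, 1.03, 0.960 and 0.964). Intervals are 95% intervals of the fit. The procedure was tested on simulated data. Of 53379 identifiers, 53274 were found, without version numbers, in GENCODE M21 (GRCm38), which gave coordinates. Near copies were transcripts with at least 90% identity over at least 200 bases, or over most of the copy, by blastn.

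The members and gene lists were chosen with earlier results of these data known. Named genes were all 8 members, the called genes of each list, the 3 with the largest absolute log2 fold change where fewer than 3 were called, and the 3 genes nearest to the called member with the largest change. Alternatives were DESeq2 1.42.0, its size factors, upper-quartile factors, leaving out mitochondrial genes, a replicate block, no filter, a filter of at least 10 counts in each library, limma 3.58.1 on log2(TPM + 1) or log2(TPM + 0.1), an adjusted p under 0.05, 20 neighbours in place of 40, each library left out, and near copies of *Sumo2* and *Sumo3*, or of *Sp100*, summed, these last 2 added after seeing the data. Gene set tests, DNA copy number and proteins were not analysed here. Some genes of the lists are not reported here.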

Additional observations from a re-analysis of the deposited data

How the results depend on the processing

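*Sp100* was called lower under each of the 15 alternatives in which it was tested, the sum with its own near copies included. Of these, the adjusted p under 0.05 reuses the main fit, and summing the near copies of *Sumo2* and *Sumo3* leaves the *Sp100* reads as they were. Neither tests its call anew, and the filter of at least 10 counts in every library left it out. *Smc5*, *Smc6*, *Nsmce2*, *Pml* and *Pias4* were called under none at an adjusted p under 0.01. Leaving out a library leaves 1 library in a group, which is then assumed to vary like the other group, and it lowered or raised many calls. Without each library, log2 fold changes ranged from -0.019 to 0.16 for *Pml*, from 0.11 to 0.56 for *Sumo2* and from 0.50 to 0.63 for *Sumo3*. Of the 40 list genes named, 17 kept their direction and side of the threshold in every alternative in which they were tested and 4 changed direction. At this depth a gene with few reads, such as *Sp100*, has an imprecise fold change, and small differences could not be told apart from the spread of 2 libraries. The cause of the shifts below was not tested.

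With limma on log2 TPM at the pseudocounts 1 and 0.1, the log2 fold change was -0.13 and -0.14 for *Pml*, -0.23 and -0.24 for *Smc5*, -0.37 and -0.39 for *Smc6*, -0.059 and -0.062 for *Nsmce2*, -0.26 and -0.28 for *Pias4*, -0.17 and -0.18 for *Senp6*, -0.23 and -0.24 for *Rnf4* and -0.0305 and -0.0315 for *Smc2*, all on the other side of 0 from edgeR's values, and 0.28 and 0.29 for *Sumo3*, no longer called. Without PD100 replicate 2 that of *Pml* was -0.019 and that of *Sae1* was 0.12, and without each library the latter ranged from -0.18 to 0.12 (0.037 without PD800 replicate 1). With no expression filter that of *Sumo2* was 0.32 and called.

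Over all tested genes, 2513 were higher and 2943 lower, and beyond 2-fold 1202 and 1686. Higher genes numbered 3991 with no filter, 712 and 706 with limma at the pseudocounts 1 and 0.1, and 4224 at an adjusted p under 0.05, where lower genes numbered 4515. Beyond 2-fold, limma called 297 and 533 higher, and 920 lower at the pseudocount 1. Without each library in turn, 1257 to 4079 were higher and 1567 to 4223 lower.

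Of the 8 genes, 2 were called higher with no filter, 0 with either limma fit and 0 to 2 without each library, and 0 were called lower when at least 10 counts were required in every library, which left *Sp100* out. Without each library, other PML body genes were called higher in 0 to 3 and lower in 0 to 5 cases, SMC5/6 subunits lower in 1 to 2, SUMO-activating enzyme genes higher in 0 to 1, other ligases higher in 0 to 3 and lower in 0 to 1, proteases lower in 0 to 2, SUMO-targeted ubiquitin ligases higher in 0 to 1, other SMC genes higher in 0 to 1 and lower in 0 to 1, and interferon-stimulated genes higher in 0 to 1. At an adjusted p under 0.05, other PML body genes higher numbered 3, proteases lower 2, SUMO-targeted ubiquitin ligases higher 1 and other SMC genes higher 2. With limma at the pseudocounts 1 and 0.1, other PML body genes lower numbered 0 and 1, SMC5/6 subunits higher 1 and 1, other ligases higher 0 and 0, proteases lower 0 and 0, and other SMC genes higher 0 and 0. With no filter, SMC5/6 subunits lower numbered 2 and SUMO-targeted ubiquitin ligases higher 1, which was also the number with DESeq2. With at least 10 counts in every library, other PML body genes lower numbered 1. Among the 20 nearest genes the median log2 fold change was 0.21 around *Pml*, -0.14 around *Sp100*, 0.16 around *Smc5*, 0.0004 around *Smc6* and -0.086 around *Nsmce2*.

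The deviations of same-numbered libraries from their group means had a correlation of 0.265, and with only 2 pairs the numbers do not pair the samples. A fit with the replicate block called 3854 genes higher and 4125 lower, and 2 of the 8 genes higher, with *Sumo2* at a log2 fold change of 0.34 now called, and other PML body genes higher numbered 2, proteases lower 2 and SUMO-targeted ubiquitin ligases higher 1.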
